A study of Mus musculus with 8 samples.

Results

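Vmn2r3, Cntnap1, Ece2, Extl1, Gtpbp2 and Slc17a8 are 6 genes known mainly from tissues other than liver, or little known in liver, whose mRNA differed widely between the genotypes of this study. They are 6 of the 35275 genes in the count table and 6 of the 13168 that passed the filter on low counts. Liver RNA was sequenced from 4 male Pcx L-/- mice, in which Albumin-Cre deletes a floxed exon 10 of the pyruvate carboxylase gene in hepatocytes, and from 4 male Pcx f/f littermate controls, which the sample labels call WT. The labels give the strain of all as C57BL/6, the floxed allele having come on C57BL/6NTac, and all were 9 weeks old and fasted for 24 h, and each mouse gave 1 library. The members were chosen by symbol for their difference between these genotypes, so that difference is given here as a description with no test, and Trib3 serves as the gene with which they are compared mouse by mouse.

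Each of the 6 encodes a protein with a defined role elsewhere. Vmn2r3 is a pheromone receptor of the V2R family, which is used by neurons of the vomeronasal organ. Cntnap1 encodes Caspr, which joins axon and glia beside the node of Ranvier. Ece2 is a zinc metallopeptidase related to the endothelin-converting enzyme Ece1. Extl1 is an exostosin-like glycosyltransferase of heparan sulfate chain synthesis, Gtpbp2 is a GTPase that takes part in the rescue of stalled ribosomes, and Slc17a8 is the vesicular glutamate transporter VGLUT3. Trib3, a pseudokinase, is a target of the transcription factors ATF4 and CHOP in the integrated stress response, in which phosphorylation of the initiation factor eIF2 slows general translation and favors that of Atf4 mRNA. Pcx itself supplies oxaloacetate from pyruvate in mitochondria.

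Libraries held between 12016242 and 20023108 reads on genes. Pcx normalized counts were 556 to 758 in Pcx L-/- liver and 14371 to 22059 in control liver, or 3.6% of control on average, so no library went against its label. Hepatocyte genes marked every library, with a summed level of 100761 to 116154 CPM (counts brought to a common library total) for 8 markers in controls and 71632 to 90671 CPM in Pcx L-/- liver. Of these 8 genes, 4 fell and 0 rose, where a gene is said to rise or fall if its p by the quasi-likelihood test of edgeR, adjusted over all genes tested after Benjamini and Hochberg, was under 0.05. By this threshold 14.1% of all genes tested rose and 13.5% fell. In bulk tissue, fewer cells of a type and less RNA per cell cannot be told apart.

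Promoter sequence is shown first for Trib3, for Ece2 and Gtpbp2, whose windows were rich in CpG like that of Trib3, and for Vmn2r3, whose window was poor in it. Each is the RefSeq window (GRCm38.p6) of 250 bases before and 50 bases after the annotated start, read 5′ to 3′ on the strand of the gene, with each CG dinucleotide in capitals.
Trib3 (chr2:152344011-152344310, minus strand): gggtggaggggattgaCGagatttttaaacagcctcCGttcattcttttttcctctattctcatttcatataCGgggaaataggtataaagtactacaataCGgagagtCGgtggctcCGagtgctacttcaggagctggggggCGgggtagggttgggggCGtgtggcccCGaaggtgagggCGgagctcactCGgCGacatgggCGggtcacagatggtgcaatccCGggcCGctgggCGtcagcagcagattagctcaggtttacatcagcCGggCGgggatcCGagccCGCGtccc
Ece2 (chr16:20629601-20629900, plus strand): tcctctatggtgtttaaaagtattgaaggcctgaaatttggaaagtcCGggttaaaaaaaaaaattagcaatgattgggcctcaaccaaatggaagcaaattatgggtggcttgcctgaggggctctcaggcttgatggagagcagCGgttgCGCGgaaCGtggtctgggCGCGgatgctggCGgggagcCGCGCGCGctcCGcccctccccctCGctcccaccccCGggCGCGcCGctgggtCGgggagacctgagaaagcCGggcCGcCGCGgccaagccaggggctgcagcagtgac
Gtpbp2 (chr17:46160782-46161081, plus strand): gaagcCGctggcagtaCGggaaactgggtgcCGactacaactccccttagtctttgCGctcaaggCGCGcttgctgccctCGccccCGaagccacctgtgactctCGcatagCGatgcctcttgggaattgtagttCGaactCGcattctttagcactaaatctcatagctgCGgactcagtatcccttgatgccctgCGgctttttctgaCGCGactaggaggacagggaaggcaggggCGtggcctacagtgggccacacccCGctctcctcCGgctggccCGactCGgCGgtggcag
Vmn2r3 (chr3:64287368-64287667, minus strand): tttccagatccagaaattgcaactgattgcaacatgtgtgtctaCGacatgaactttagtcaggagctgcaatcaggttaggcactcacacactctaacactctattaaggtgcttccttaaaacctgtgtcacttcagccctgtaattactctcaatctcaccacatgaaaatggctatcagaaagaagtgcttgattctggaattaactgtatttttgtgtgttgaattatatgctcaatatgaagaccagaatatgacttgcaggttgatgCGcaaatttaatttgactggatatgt

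The ratio of observed to expected CpG was 0.86 for Trib3, 0.83 for Ece2 and 0.80 for Gtpbp2. It was 0.40 for Extl1, 0.28 and 0.40 for the 2 windows of Slc17a8, and 0.18 for Vmn2r3. Over all 32851 windows the median was 0.38, so the Extl1 window was near the middle and that of Vmn2r3 below it. Cntnap1 had no window in the table. The letters TGATGNAA, one form of the C/EBP-ATF composite element, were searched on both strands and stood in 3.97% of all windows. They were in the Trib3 window, as ttacatca on the opposite strand with its first base 15 bases after the start, and in 0 of the 6 windows of the 5 members that had one. The cyclic AMP element TGACGTCA, in 1.79% of all windows, was in none of these windows. No match says only that these letters are not within these 300 bases. The RefSeq start of Vmn2r3 lies 2292 bases inside the gene as GENCODE M21 draws it, so its window is not at the outer end of that gene model. The same holds for the Extl1 window (chr4:134372498-134372797), whose gene reaches 134383850 on the minus strand. It also holds for window 2 of Slc17a8 (chr10:89599766-89600065), whose gene reaches 89621253 on the minus strand.

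All 6 members passed the filter, 5 of them were higher and 1 lower in Pcx L-/- liver, and in all 6 the genotypes did not overlap. Among all 13168 genes tested, 27.6% were altered at an adjusted p under 0.05 and 27.6% had no overlap between genotypes. Since the members were taken for this difference, nothing is read from their count against that share. Normalized counts below are reads divided by TMM-scaled library size, brought to the scale of an average library. Log2 fold changes are Pcx L-/- over control, with standard errors (SE) from edgeR's fit over all genes.

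**Figure D1:**
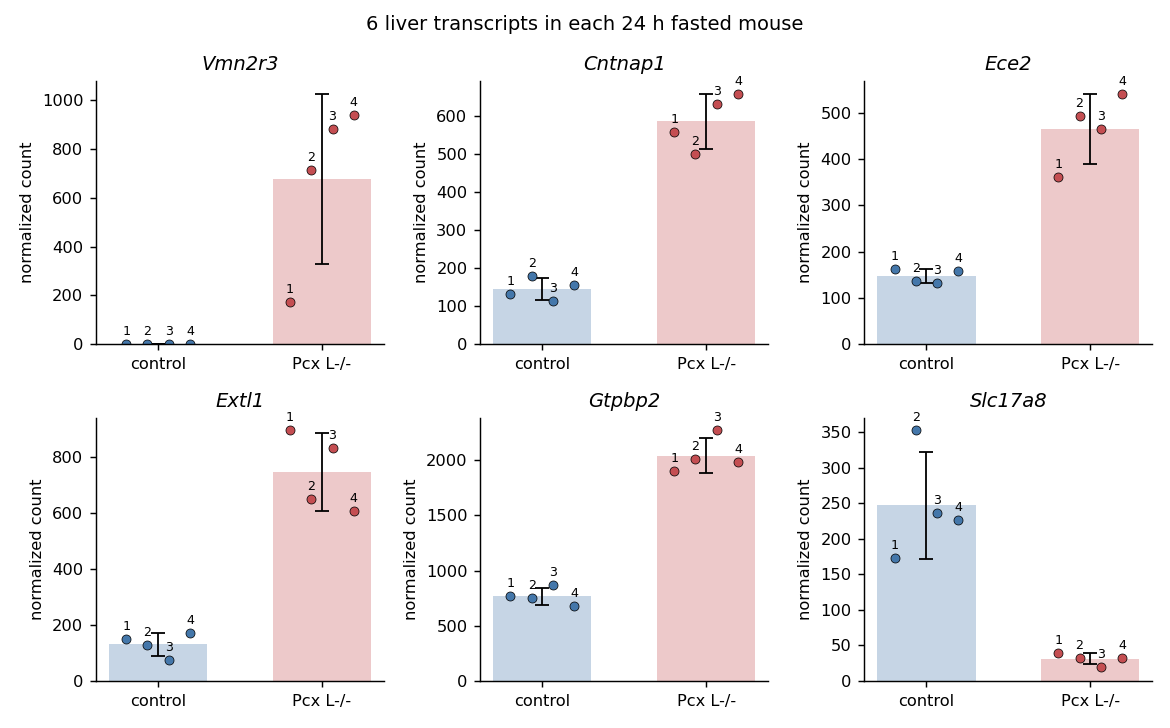
Normalized counts of the 6 genes in control and Pcx L-/- liver. Each point is 1 mouse, the number beside it is the replicate, bars are means and error bars SD (n = 4 per genotype). Vmn2r3 had no reads in any control, and Slc17a8 was the only member below its controls.

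Vmn2r3 (ENSMUSG00000091572, chr3:64257215-64289709 of GRCm38, minus strand) had 0 reads in each of the 4 controls, among 65839899 control reads in all. In Pcx L-/- replicates 1 to 4 it had 182, 937, 1136 and 947 reads, which came to normalized counts of 172, 715, 883 and 940. Replicate 1 was thus well below the other 3 Pcx L-/- mice and still far above every control. The mean in Pcx L-/- liver was 677 ± 350 (SD, n = 4), with the highest mouse at 5.47 times the lowest. Against a floor of 3 reads over the controls together, Vmn2r3 was at least 810-fold higher in Pcx L-/- liver, a limit that covers counting error only. It was the only gene of the 13168 tested with 0 reads in all 4 controls. A gene without control reads passes the filter only through its Pcx L-/- reads, so fainter ones are left out. Adm2, for example, had 0 reads over the controls and 28 over the Pcx L-/- libraries and was not tested.

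Reads of V2R receptor genes were otherwise close to absent. The count table lists 121 genes of this name, and 7 of them had any read. Next to the 3202 Vmn2r3 reads, Vmn2r29 had 24 reads over the 4 controls and 23 over the 4 Pcx L-/- libraries, and Vmn2r1 had 8 and 7. The 3 annotated pseudogenes within 50 kb of Vmn2r3 had 0 reads. Of the 50-base words in Vmn2r3's annotated exons, 3.09% also occurred in another gene, and the gene sharing most was Vmn2r2, with 1.52%. These words come from all 9 annotated transcripts, the longest of 10927 bases, and the share within the coding transcripts alone was not taken. Trpc2, the cation channel that defines vomeronasal neurons, had no reads in any library. The 7 vomeronasal markers summed to 85.7 to 103 CPM in controls and 104 to 126 CPM in Pcx L-/- liver, nearly all of it from the widely expressed Gnai2, which had a log2 fold change of 0.05 (SE 0.10, edgeR adjusted p = 0.718). The other 6 summed to 3.00 to 5.89 CPM in controls and 1.88 to 4.39 CPM in Pcx L-/- liver, with log2 fold changes of -1.10 (adjusted p = 0.142) for Gnao1 and -0.55 (adjusted p = 0.213) for Ano1.

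Which part of Vmn2r3 was counted is not certain. The length behind the authors' FPKM values (fragments per kilobase of transcript, scaled to sequencing depth) is 2748 bases for Vmn2r3, and none of its 3 coding transcripts in GENCODE M21, which run from 2670 to 5149 bases, has that length. For the 5 other members and Trib3 the length equals that of their longest coding transcript, for example 5440 bases for Cntnap1 and 2966 for Gtpbp2. How the length of Vmn2r3 was set is not known, and its FPKM level depends on it.

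Extl1 (ENSMUSG00000028838, chr4:134356372-134383850, minus strand) had normalized counts of 149, 127, 76.3 and 171 in control replicates 1 to 4. In Pcx L-/- replicates 1 to 4 the counts were 897, 650, 832 and 609. The lowest Pcx L-/- mouse stood at 3.55 times the highest control, and control replicate 3 was the lowest of all. Means were 131 ± 40.7 and 747 ± 139 (SD, n = 4 each), a ratio of 5.71 and a log2 fold change of 2.52 (SE 0.22).

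Cntnap1 (ENSMUSG00000017167, chr11:101170523-101190724, plus strand) had 132, 178, 113 and 156 normalized counts in controls, against 556, 499, 630 and 658 in Pcx L-/- liver. The 4 Pcx L-/- mice lay close together, within 1.32 times of each other. Means were 145 ± 28.3 and 586 ± 72.0 (SD, n = 4 each), with a log2 fold change of 2.02 (SE 0.15). Plekhh3 lies on the opposite strand and shares 233 exonic bases with Cntnap1, and whether reads were counted by strand is not known from the sources used here. Plekhh3 had a log2 fold change of 0.12 (SE 0.17, edgeR adjusted p = 0.653), with 160 to 197 normalized counts in controls and 141 to 235 in Pcx L-/- liver.

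Ece2 (ENSMUSG00000022842, chr16:20629828-20646485, plus strand) had 163, 137, 133 and 158 normalized counts in controls, against 360, 493, 464 and 541 in Pcx L-/- liver. As for Vmn2r3, the lowest Pcx L-/- mouse was replicate 1. Means were 148 ± 14.9 and 464 ± 76.7 (SD, n = 4 each), a ratio of 3.15 and a log2 fold change of 1.65 (SE 0.14). The readthrough gene Gm49333 overlaps Ece2 and shares 54.58% of its 50-base words, and Gm49333 is not used here, so how reads common to both were counted is uncertain.

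Gtpbp2 (ENSMUSG00000023952, chr17:46161032-46169370, plus strand) was the most abundant member. Its normalized counts were 767, 748, 871 and 682 in controls and 1903, 2010, 2271 and 1982 in Pcx L-/- liver. The Pcx L-/- mice varied by a coefficient of variation of 7.83%, below the median of 14.1% over all genes tested in that genotype. Means were 767 ± 78.1 and 2041 ± 160 (SD, n = 4 each), and the log2 fold change was 1.41 (SE 0.11). No 50-base word of Gtpbp2's exons occurred in another gene.

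Slc17a8 (ENSMUSG00000019935, chr10:89574020-89621253, minus strand) was the member lower in Pcx L-/- liver. Controls had 173, 353, 236 and 227 normalized counts, and Pcx L-/- mice had 38.7, 32.8, 20.2 and 32.7. The highest Pcx L-/- mouse was far below the lowest control. Means were 248 ± 75.9 and 31.1 ± 7.78 (SD, n = 4 each), 7.95 times higher in controls, with a log2 fold change of -3.00 (SE 0.26).

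By size of log2 fold change, Slc17a8 ranked 52nd, Extl1 87th, Cntnap1 161st, Ece2 284th and Gtpbp2 451st among the 13168 genes tested. Vmn2r3 has no fitted fold change that can be read, because its controls are all at 0. Trib3 ranked 19th, with 4.17 (SE 0.22) on the log2 scale. The median over all genes was -0.01, and with library sizes alone in place of TMM factors it was 0.28, so each log2 fold change moves by about that much with the scaling while the members keep their direction.

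Per length, the mean of each member but Gtpbp2 was below the median of genes tested in controls, which was 4.37 FPKM. In Pcx L-/- liver, where that median was 5.39 FPKM, the mean of each member but Slc17a8 was above it. On the authors' FPKM scale, which is relative to the library total and carries no TMM factor, Gtpbp2 led in controls with 13.8 ± 1.91 FPKM (SD, n = 4). It was followed by Slc17a8 with 2.98 ± 0.994, Ece2 with 2.28 ± 0.216, Extl1 with 1.68 ± 0.476 and Cntnap1 with 1.42 ± 0.288 FPKM (SD, n = 4 each). The ranges of Slc17a8 and Ece2 overlapped, as did those of Extl1 and Cntnap1. In Pcx L-/- liver the order was Gtpbp2 with 45.0 ± 6.38, Vmn2r3 with 16.5 ± 8.91, Extl1 with 11.7 ± 1.70, Ece2 with 8.86 ± 2.01, Cntnap1 with 7.02 ± 1.13 and Slc17a8 with 0.45 ± 0.0946 FPKM (SD, n = 4 each). Vmn2r3, at 3.57 to 22.9 FPKM, overlapped Extl1, Ece2 and Cntnap1, and only Gtpbp2 above and Slc17a8 below were apart from the rest. Trib3 went from 7.17 ± 0.291 to 160 ± 55.9 FPKM (SD, n = 4 each).

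The mouse numbers in the labels fall into a 500s and an 800s series, and what sets these series apart is not stated. The 500s held 1 Pcx L-/- and 2 control mice, and the 800s held 3 and 2. The ratio of Pcx L-/- to control means in the 500s and the 800s was 3.59 and 4.43 for Cntnap1, 2.40 and 3.43 for Ece2, 6.50 and 5.63 for Extl1, and 2.51 and 2.69 for Gtpbp2. Slc17a8 was 6.80 and 8.11 times higher in controls. Vmn2r3 was at 172 normalized counts in the single Pcx L-/- mouse of the 500s and at 846 on average in the 3 mice of the 800s. Each member kept its direction within both series. That mouse of the 500s, replicate 1, also had the highest summed level of 6 red blood cell markers, 3956 CPM against 425 to 1056 CPM in the other Pcx L-/- mice and 260 to 927 CPM in controls, none of the 5 tested passing the threshold, and the part of blood in its values was not tested.

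Covariation with Trib3 was read within each genotype, because pooling 2 separate genotypes would only restate their difference, and 4 mice a genotype are too few for a correlation. Trib3 normalized counts were 270, 268, 273 and 278 in controls and 3173, 6397, 4249 and 5761 in Pcx L-/- replicates 1 to 4. Trib3 was thus nearly the same in all controls and differed up to 2.02 times among Pcx L-/- mice, with replicate 1 lowest and replicate 2 highest. The 4 mice of a genotype give 6 pairs, and the number of pairs that stood in the same order for a member as for Trib3 was counted. The median over all genes tested was 3 of 6 in either genotype.

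**Figure D2:**
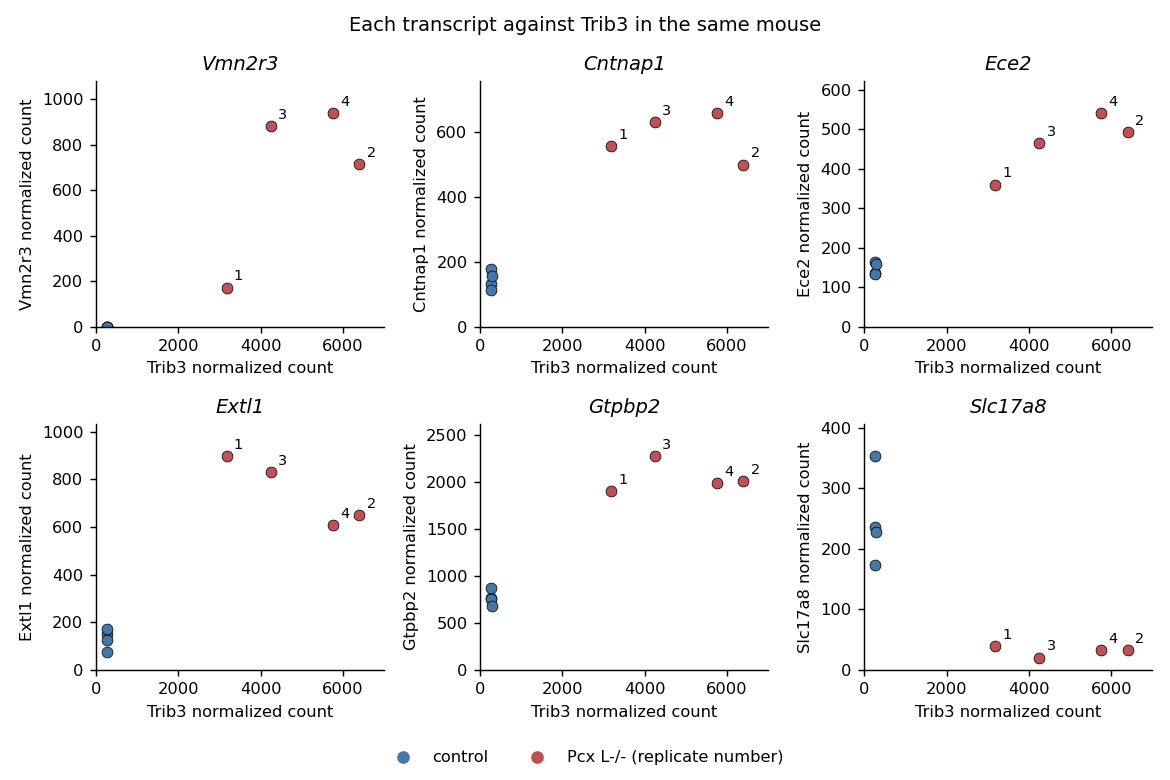
Normalized count of each of the 6 genes against that of Trib3 in the same mouse, on linear axes. Each point is 1 mouse, and numbers give the Pcx L-/- replicate. Controls stack at 268 to 278 Trib3 counts. Among Pcx L-/- mice, Ece2 stood in the order of Trib3 in 5 of 6 pairs, a count that 25.2% of genes tested reached or passed. Extl1 did so in 1 of 6 pairs.

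Among Pcx L-/- mice, Ece2 followed the order of Trib3 in 5 of 6 pairs, a count that 25.2% of all genes reached or passed. Vmn2r3 and Gtpbp2 did so in 4 of 6 pairs, as 42.0% of genes did or exceeded. Cntnap1 and Slc17a8 were at the median with 3 pairs, and Extl1 was at 1 pair, its highest level being in the mouse with the least Trib3. Of all genes tested, 8.88% had 0 pairs. The share with 1 pair or fewer was not taken, so nothing is read from the count of Extl1. Among Pcx L-/- mice the members thus lay on both sides of the median of all genes. Replicate 1, the only Pcx L-/- mouse of the 500s series, was lowest for Trib3, Vmn2r3, Ece2 and Gtpbp2 and highest for Extl1 and Slc17a8. In the pairs that hold it, mouse and series cannot be told apart. In controls the counts were 4 for Extl1, 3 for Ece2 and Gtpbp2 and 2 for Cntnap1 and Slc17a8, while Vmn2r3 was tied at 0 in all. Nothing is read from the control counts, because Trib3 varied by a coefficient of variation of 1.67% among controls, less than the 5.80% to 7.81% that counting error alone gives at its 164 to 297 reads.

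Single mice moved these counts. Without Pcx L-/- replicate 1, Vmn2r3 kept 1 of the 3 remaining pairs, so 3 of its 4 pairs lay in that mouse being lowest for both. Without replicate 2 it had 3 of 3. Ece2 kept 2 or 3 of 3 pairs whichever mouse was left out, and Extl1 0 or 1. Cntnap1 and Gtpbp2 ranged from 1 to 3, and Slc17a8 had 3 without replicate 1 and 1 without any other.

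A second measure was the root mean square distance between 2 genes over the 8 mice, after each gene's control mean was taken from its log2 CPM. A distance of 0 means the same pattern and size. Extl1 was nearest to Trib3 at 1.23, followed by Cntnap1 at 1.52, Ece2 at 1.76 and Gtpbp2 at 1.93, and Slc17a8 was at 4.98. The median over genes tested was 2.92. Genes higher in Pcx L-/- liver tend to lie below it, and the members were chosen for their difference. Ordered by distance from each member, Trib3 was 532nd for Extl1, 7740th for Cntnap1, 12265th for Ece2, 12855th for Gtpbp2 and 13157th for Slc17a8. Because this distance carries the genotype difference, it orders the members mainly by the size of theirs. Vmn2r3 was at 2.93, with Trib3 7th nearest to it, values set by the prior count of 2 reads that stands in for its zeros. The genes nearest to Trib3 itself were Psat1 at 0.38, Cox6a2 at 0.48 and Cidec at 0.52.

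By the same distance, the genes nearest to each member were different for each one. This nearness, too, mainly follows the size of the genotype difference, for which the members were chosen. Whether these genes vary together among mice of a genotype was not tested. Gtpbp2 lay nearest to Slc3a2, the heavy chain of several amino acid transporters, at 0.13, and to the drug exporter Abcb1a at 0.14. Ece2 lay nearest to the lysosomal protease gene Ctsl at 0.11 and to Nhp2, a protein of box H/ACA ribonucleoproteins, at 0.13. Cntnap1 was nearest to Pycr1, an enzyme of proline synthesis, at 0.25 and to Phf21b at 0.28. These pairs include 1 very abundant gene, Ctsl, with 11329 to 13274 normalized counts in controls and 30594 to 40553 in Pcx L-/- liver.

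Extl1 was nearest to Gsto2 at 0.29 and to the fatty acid receptor gene Ffar4 at 0.44, both of them at no more than 28.8 normalized counts in any mouse. Slc17a8 was nearest to the cytochrome P450 gene Cyp2c54 at 0.44 and to F830016B08Rik at 0.45. For Vmn2r3, whose every distance is set by what stands in for its zeros, the nearest were the stress-induced regulator Nupr1 at 1.10 and Serpina7, which encodes thyroxine-binding globulin, at 1.98, but Nupr1 at 2.91 and Cox6a2 at 3.69 with a prior count of 0.25 and Lor and Gm6614 on log2(FPKM + 1), scales looked at after the values were seen. Nupr1 had 3.39 to 11.8 normalized counts in controls and 301 to 1730 in Pcx L-/- liver. Of the members among themselves, Ece2 and Gtpbp2 were closest at 0.27 and Cntnap1 and Ece2 next at 0.37, again mainly by the size of their differences.

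The listed genes of the integrated stress response were largely higher. This list was drawn up with earlier results of these data known. It holds genes that the paper named from the same RNA, such as Trib3, Psat1 and Fgf21. Nothing is therefore read from its counts against the shares over all genes tested, of which 14.1% rose and 13.5% fell. Of the 46 tested genes of the list, Trib3 among them, 30 rose and 3 fell, and the median log2 fold change was 0.59. The highest were Nupr1 with 7.19 (SE 0.64, adjusted p = 0.000159), the serine synthesis enzyme Psat1 with 4.48 (SE 0.31, adjusted p = 2.93e-05) and the hormone Fgf21 with 4.23 (SE 0.52, adjusted p = 0.000735), all by edgeR. The 3 that fell were the amino acid transporter Slc38a2 with -0.75, the mitochondrial serine hydroxymethyltransferase Shmt2 with -0.57 and Herpud1 of the endoplasmic reticulum with -0.55. None of these 3 calls held with library sizes only or without Pcx L-/- replicate 2, whereas 23 of the 30 higher genes were called in all 17 other settings.

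Gtpbp2's closest paralog is Gtpbp1, which acts in the same rescue of ribosomes. Gtpbp1 had 413 ± 34.0 normalized counts in controls and 484 ± 27.8 in Pcx L-/- liver (SD, n = 4 each), and its log2 fold change was 0.23 (SE 0.10, edgeR adjusted p = 0.113). With library sizes only and on both FPKM scales, Gtpbp1 was called higher, its lowest adjusted p over the settings being 0.00751. Among the 20 other tested genes of ribosome rescue and quality control, 3 rose and 2 fell, with a median of 0.03. Over all genes tested, 14.1% rose and 13.5% fell. Rack1, a ribosomal scaffold protein, rose with 0.80 (SE 0.14, adjusted p = 0.00255), and Trip4, of the complex that splits collided ribosomes, fell with -0.73 (SE 0.14, adjusted p = 0.00373). Ascc2 with 0.65, the rescue factor Pelo with 0.58 and the kinase gene Eif2ak4 with -0.40 also passed, and each lost its call when replicate 2 of the Pcx L-/- mice was left out, with the highest adjusted p over the settings at 0.0781, 0.147 and 0.671.

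Ece2 and its relative Ece1 had differences of opposite sign. Ece1, which makes active endothelin, fell from 5146 ± 802 to 2776 ± 487 normalized counts (SD, n = 4 each), with a log2 fold change of -0.89 (SE 0.16, edgeR adjusted p = 0.003), and kept its call in all 17 other settings. Mme, the peptidase neprilysin, had a log2 fold change of -0.04 (SE 0.26, adjusted p = 0.924). Of the endothelin ligands and receptors, 3 were tested and none passed the threshold in edgeR's test (Edn1 0.64, adjusted p = 0.17, Ednra -0.39, adjusted p = 0.303, and Ednrb -0.29, adjusted p = 0.253). Ednrb passed with the mouse-number series as a term (adjusted p = 0.0372) and Edn1 on log2(FPKM + 1) (adjusted p = 0.0477), each in 1 of the 17 other settings, and 2 of the 5 genes had no reads.

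The other exostosin genes, which start and build heparan sulfate chains, had smaller differences than Extl1. Ext1 fell with -0.49 (SE 0.15, adjusted p = 0.0364), a call lost without 6 of the 8 mice in turn and with library sizes only, where adjusted p reached 0.348. Log2 fold changes were -0.05 (SE 0.14, adjusted p = 0.815) for Ext2, 0.38 (SE 0.15, adjusted p = 0.0743) for Extl2 and -0.13 (SE 0.14, adjusted p = 0.515) for Extl3, and Extl2 passed the threshold with library sizes only, on both FPKM scales and with the mouse-number series as a term (lowest adjusted p 0.00696). Over the 19 other tested genes of heparan sulfate synthesis, 3 rose and 6 fell, with a median of -0.08. The shares over all genes tested were 14.1% and 13.5%. The sulfotransferase gene Ndst1 fell with -0.79 (SE 0.15, adjusted p = 0.00445) and was the only one of these 9 calls to hold in all 17 other settings. The linker enzymes B3galt6 and B3gat3 and the epimerase Glce rose with 0.73, 0.45 and 0.44, and the kinase Fam20b, the sulfotransferases Ndst2 and Hs3st3b1 and the xylosyltransferase Xylt2 fell with -0.55, -0.50, -0.37 and -0.44. Each of these 7 lost its call in 3 or more of the settings, B3galt6 and Glce, for example, without Pcx L-/- replicate 2.

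**Figure D3:**
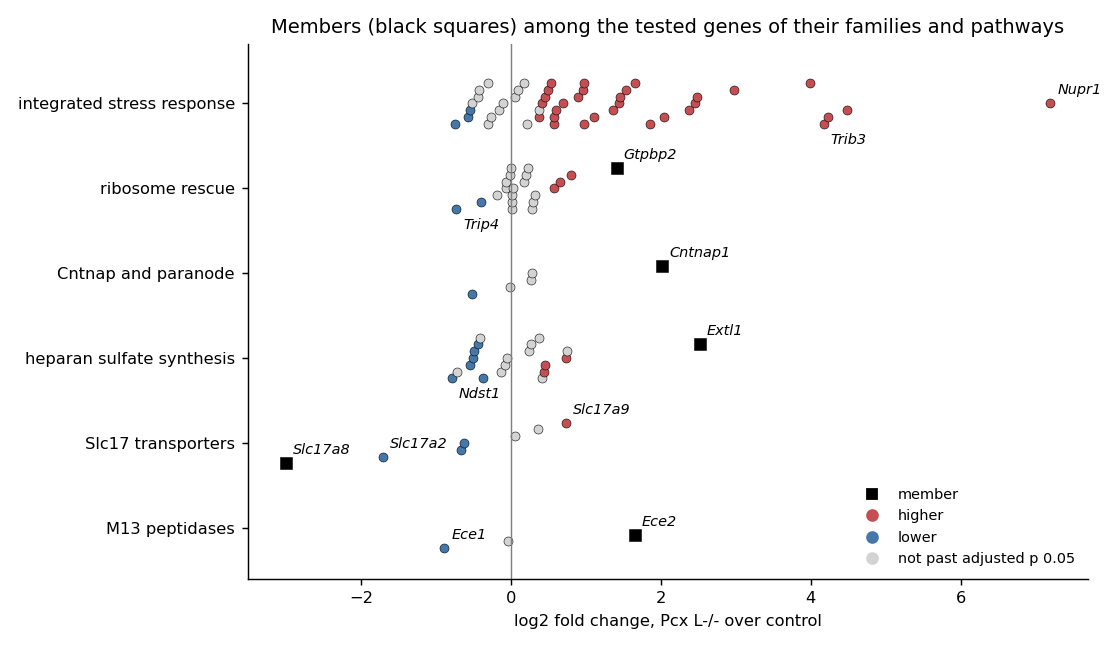
Log2 fold change, Pcx L-/- over control, of each tested gene in the families and pathways of the members. Black squares are members, the other points are colored by edgeR's call at an adjusted p under 0.05, and height within a row has no meaning. Vmn2r3 is left out because its controls had no reads. Ece2 (1.65) and Extl1 (2.52) lie far above their relatives, and Slc17a8 (-3.00) lies beyond Slc17a2 (-1.71).

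Cntnap1 was the only gene of its family with more than a few reads. The other Cntnap genes had at most 3 reads in all 8 libraries and were not tested, and Cntn1, the axonal partner of Caspr, had 6 reads over the controls and 7 over the Pcx L-/- libraries. Of the other listed paranode genes, Nfasc had 49 and 17 reads and Cntn2 had 42 and 28. Cntn1, Nfasc and Cntn2 were not tested either. Of 4 other paranode genes tested, the spectrin gene Sptan1 fell with -0.52 (SE 0.15, edgeR adjusted p = 0.0263), and this call was lost with library sizes only and without Pcx L-/- replicate 2, the highest adjusted p over the settings being 0.243. Schwann cell and glial markers summed to 4.41 to 6.61 CPM over 8 genes in controls and to 5.92 to 9.21 CPM in Pcx L-/- liver, with none of 3 tested past the threshold. The part of nerve tissue in the Cntnap1 values was not tested.

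Slc17a8 is one of 3 vesicular glutamate transporters, and the others had almost no reads, Slc17a6 none and Slc17a7 4 in controls and 12 in Pcx L-/- liver. Among 6 other tested members of the family, 3 fell and 1 rose, where 13.5% and 14.1% of all genes tested did. Slc17a2, a phosphate and organic anion transporter of liver and kidney, fell from 3628 ± 480 to 1109 ± 401 normalized counts (SD, n = 4 each), with a log2 fold change of -1.71 (SE 0.22, edgeR adjusted p = 0.00082). The lysosomal sialic acid exporter Slc17a5 fell with -0.67 (SE 0.12, adjusted p = 0.00258) and the vesicular nucleotide transporter Slc17a9 rose with 0.73 (SE 0.13, adjusted p = 0.00301). All 3 of these calls held in the 17 other settings. Slc17a3, with -0.62 (SE 0.21, adjusted p = 0.05 after rounding), was at the threshold, and its call was lost with library sizes only and without each mouse in turn other than Pcx L-/- replicate 1, with adjusted p up to 0.143. Slc17a1 and Slc17a4 had log2 fold changes of 0.05 (adjusted p = 0.89) and 0.36 (adjusted p = 0.226), the latter passing with library sizes only and on log2(FPKM + 0.1).

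Neuronal markers summed to 10.3 to 14.7 CPM over 10 genes in controls and to 6.11 to 9.89 CPM in Pcx L-/- liver. Th, the enzyme gene that defines sympathetic neurons, had no reads, and 1 of the 4 tested markers, Syt1, fell. Syt1 alone carried the lower sum, since the other 9 genes summed to 1.91 to 5.83 CPM in controls and to 1.83 to 6.80 CPM in Pcx L-/- liver, which overlap. Markers of macrophages, endothelial cells, stellate cells, lymphocytes and cholangiocytes had 2 calls among 30 tested, where 27.6% of all genes tested were called. Sox9 fell, and Cd68 rose with 0.86 (SE 0.26, edgeR adjusted p = 0.0289).

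Within 50 kb of the 6 members the count table lists 26 genes, of which 16 were tested, 6 rose and 1 fell, where 14.1% and 13.5% of all genes tested did. Camk2n2, an inhibitor of calcium/calmodulin-dependent kinase II, lies 8541 bases from Ece2 and does not overlap it. It had 45.5, 31.4, 40.8 and 32.2 normalized counts in controls against 128, 202, 153 and 223 in Pcx L-/- liver, in the same order of Pcx L-/- mice as Ece2. Its log2 fold change was 2.22 (SE 0.22, edgeR adjusted p = 0.000222). Alg3, a mannosyltransferase of N-glycan synthesis 18093 bases from Ece2, had 208, 176, 278 and 244 normalized counts in controls against 386, 525, 508 and 543, with 1.12 (SE 0.16, adjusted p = 0.00115). On the other side of Ece2, Psmd2, Eif4g1 and Fam131a had log2 fold changes of 0.07 (SE 0.15, adjusted p = 0.766), -0.10 (SE 0.15, adjusted p = 0.652) and -0.49 (SE 0.52, adjusted p = 0.519). Camk2n2 and Alg3 kept their calls in all 17 other settings, while Psmd2 passed only on scales without TMM factors. Alg3 also had the order of Ece2 among Pcx L-/- mice, an order shared in all 6 pairs by 7.37% of all genes tested and looked at after the values were seen. Psmd2 had it in 4 of 6 pairs and Eif4g1 in 1 of 6. Replicate 1, the only Pcx L-/- mouse of the 500s series, was lowest for Ece2, Camk2n2 and Alg3. The readthrough gene Gm49333 (chr16:20611610-20645920), which overlaps Ece2, also spans Camk2n2 and begins inside Alg3, both on the opposite strand. Whether reads were counted by strand is not known, and the part of Gm49333 reads in the Camk2n2 and Alg3 counts was not tested.

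**Figure D4:**
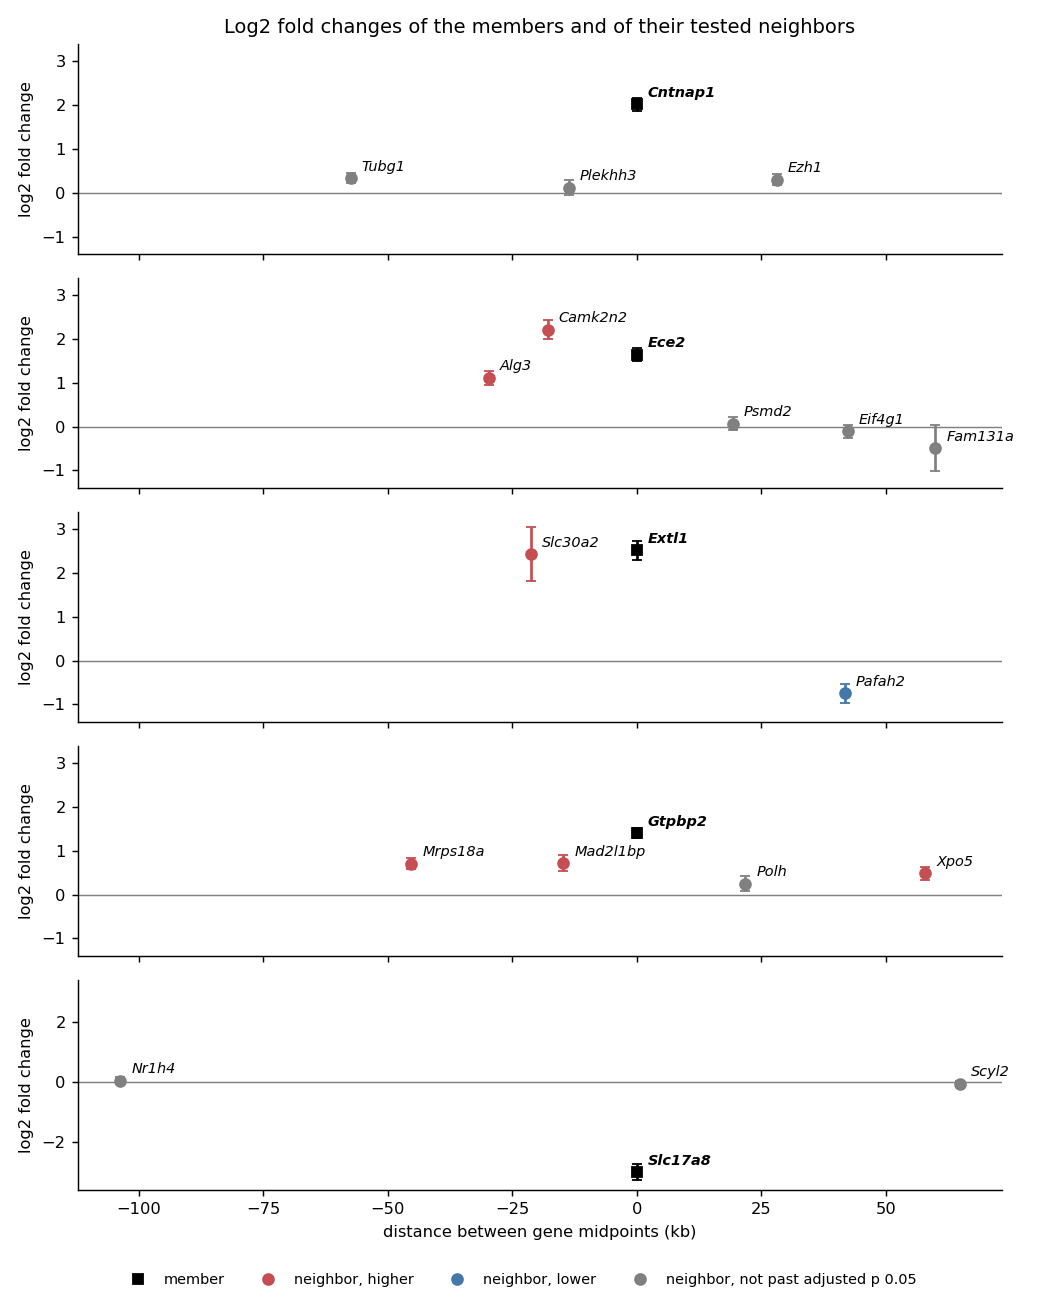
Log2 fold change with SE of each tested gene within 50 kb of 5 members, against the distance in kb between gene midpoints. Squares are the members, and red, blue and gray points are neighbors that rose, fell or did not pass an adjusted p of 0.05. Both tested genes on the left of Ece2 rose (1.12 and 2.22), and neighbors of Cntnap1 and Slc17a8 stayed between -0.06 and 0.34.

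Around Gtpbp2, Mrps18a, a protein of the mitochondrial ribosome, rose with 0.71 (SE 0.12, adjusted p = 0.00195) and Mad2l1bp, a silencer of the spindle checkpoint, with 0.72 (SE 0.18, adjusted p = 0.0134) by edgeR. Xpo5, the export receptor of microRNA precursors, rose with 0.49 (SE 0.15, adjusted p = 0.0299), a call lost without 6 of the 8 mice in turn (adjusted p up to 0.094). Polh, which lies 1985 bases from Gtpbp2, had 0.25 (SE 0.17, adjusted p = 0.3). Beside Extl1, the zinc transporter gene Slc30a2 had 8 reads over the controls and 57 over the Pcx L-/- libraries, with 2.43 (SE 0.62, adjusted p = 0.0153, and up to 0.0509 without control replicate 3 or Pcx L-/- replicate 4). Pafah2, an acetylhydrolase of platelet-activating factor, fell with -0.75 (SE 0.21, adjusted p = 0.023), a call lost without control replicate 3 or without Pcx L-/- replicate 2, 3 or 4 (adjusted p up to 0.0774). Near Cntnap1, Tubg1 and Ezh1 had 0.34 (SE 0.12, adjusted p = 0.0557) and 0.30 (SE 0.13, adjusted p = 0.123). Both passed the threshold on the 3 scales without TMM factors, and Tubg1 also without Pcx L-/- replicate 1 (lowest adjusted p over the settings 0.00777) and Ezh1 without control replicate 4 (0.00821). Near Slc17a8, the bile acid receptor gene Nr1h4 and Scyl2 had 0.04 (SE 0.13, adjusted p = 0.838) and -0.06 (SE 0.10, adjusted p = 0.698).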

How the data were processed

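Liver RNA of 4 Pcx L-/- and 4 control mice was sequenced with 1 library per mouse, and genotypes were taken from the sample labels. The submitters' processing notes list STAR 2.5, HTSeq 0.6.1, DESeq2 and mm10. Annotation release and strand setting: not given in the sources used here. Raw read counts per Ensembl gene and FPKM values were deposited by the authors. All 142384 FPKM values above 0 equal the deposited count over length and library total within 1e-06. GENCODE M21 gave symbols for 97.8% of the identifiers and the coordinates (GRCm38).

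Counts were fitted with edgeR 4.0.16 in R 4.3.3 (TMM, filterByExpr with a minimum count of 10 and total of 15, quasi-likelihood test, genotype only, Benjamini-Hochberg over 13168 genes). The biological coefficient of variation was 0.181 with 6 residual degrees of freedom. SE are the log2 fold change over the square root of F and approximate. Depths of 12016242 to 20023108 reads limit genes with few reads. Distances used log2 CPM with a prior count of 2. Steps were tested on simulated data.

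Members and gene lists were chosen with earlier results of these data known. Named are the members, Trib3, up to 5 list genes in each direction by size of change among those past the threshold, direct paralogs, tested neighbors within 50 kb, the 2 genes nearest to each member, and 3 highest and 3 lowest of the stress response list. The 3 genes nearest to Trib3 and the markers Th, Trpc2, Gnai2, Gnao1, Ano1, Syt1, Sox9 and Cd68 and the genes near Vmn2r3 on other scales were added. So were the untested list genes Adm2, Cntn1, Cntn2 and Nfasc. Of the list symbols, 4 matched no identifier. Alternatives were RLE factors, library sizes only, no filter, DESeq2 1.42.0 without and with apeglm 1.24.0, limma 3.58.1 on log2(FPKM + 1) and log2(FPKM + 0.1), a replicate block, a term for the mouse-number series, and each mouse left out, 17 in all.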

Additional observations from a re-analysis of the deposited data

How the results depend on the processing

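Vmn2r3, Cntnap1, Ece2, Extl1, Gtpbp2 and Slc17a8 kept their direction in every setting that gave a value. With library sizes only, and with limma on log2(FPKM + 1) and log2(FPKM + 0.1), the genes higher in Pcx L-/- liver numbered 3915, 3822 and 3779 in place of 1855, those lower 870, 823 and 822 in place of 1777, and the stress response genes lower 0, 0 and 0 in place of 3. Higher genes made up 51.1% of the calls, and 81.8% with library sizes only. None of these 3 settings uses TMM factors. With library sizes only the log2 fold change was 2.31 for Cntnap1, 1.95 for Ece2 and 1.70 for Gtpbp2. On log2(FPKM + 1) it was 1.73 for Cntnap1, 1.63 for Gtpbp2 and -1.43 for Slc17a8, and on log2(FPKM + 0.1) it was 1.88 for Ece2, 1.69 for Gtpbp2 and -2.45 for Slc17a8. A pseudocount draws in the change of low genes. Tcf25, a ribosome quality control gene not called at -0.01, was at 0.28 on both FPKM scales.

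The share of mouse pairs in the order of Trib3, over both genotypes (for Vmn2r3, Pcx L-/- pairs only, as its controls are tied) and so with control pairs whose Trib3 order is within counting error, was 66.7% for Cntnap1 and for Slc17a8 with library sizes only and on log2(FPKM + 1), in place of 41.7%. The cause was not tested. The distance to Trib3 was 0.50 for Vmn2r3, 1.80 for Cntnap1 and 4.01 for Slc17a8 on log2(FPKM + 1), and 5.02 for Vmn2r3 with a prior count of 0.25, which stands in for its zeros.

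With each mouse left out in turn, higher genes numbered 1156 to 2232, the fewest without Pcx L-/- replicate 4, and lower genes 953 to 2370, with 953, 1043 and 1097 without Pcx L-/- replicates 4, 2 and 3 and the most without replicate 1. Stress response genes lower numbered 0 to 5. The shares of pairs were 33.3% to 100% for Vmn2r3 and 22.2% to 55.6% for Extl1. Distances were 1.25 to 1.70 for Cntnap1, 1.55 to 1.92 for Ece2, 1.68 to 2.11 for Gtpbp2 and 4.53 to 5.43 for Slc17a8. Log2 fold changes were 1.91 to 2.14 for Cntnap1, 1.57 to 1.76 for Ece2, 2.33 to 2.66 for Extl1, 1.36 to 1.48 for Gtpbp2 and -3.14 to -2.77 for Slc17a8, and the lower limit for Vmn2r3 was 559-fold to 989-fold.

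Replicate numbers are not known to pair the mice, and correlations with 4 mice a genotype cannot show which of them shared a litter. Deviations of same-numbered mice correlated across genes at 0.10, -0.13, -0.10 and -0.07, and not every mouse correlated best with its own number. With the replicate block, 1481 genes were higher and 1494 lower. A wider promoter window was not run because no genome of this build was used here, and DESeq2, limma, the unfiltered fit, the block and the series covariate give no value for the Vmn2r3 limit.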
